A study of Mus musculus with 6 samples.

Results

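The genes described here encode the LIM-only proteins Lmo1, Lmo2 and Lmo4, the LIM-domain-binding adaptors Ldb1 and Ldb2, the zinc finger factors Gata2, Gata3 and Gata6, and the blood-cell bHLH factors Tal1 and Lyl1. They were taken by symbol, and all 10 were found among the 49671 genes counted. The set was chosen by measured values: Lmo2 had one of the larger falls in the comparison of knockout with control cells made here. Expression was measured by RNA sequencing in a mouse line of differentiated preadipocytes, with 3 libraries of control cells and 3 of knockout cells. The line was made from inguinal fat of 3-month-old C57BL/6 mice homozygous for floxed Tcf7l2, was immortalised with retroviral SV40 large T antigen and carries retroviral CreERT2, a Cre recombinase that 4-hydroxytamoxifen activates, in both groups. Knockout cells received 4-hydroxytamoxifen and control cells ethanol for 24 h, 2 days ahead of adipogenic induction. Both were induced with 1 µM dexamethasone, 0.5 mM isobutylmethylxanthine and 5 µg/mL insulin and taken to day 8. A further agent is listed at 5 nM, under a code number that rises in sequence from library to library. As listed, control and knockout libraries share no code, and whether the libraries truly differed in that agent is not known. As only knockout cells received 4-hydroxytamoxifen, gene deletion and exposure to that drug cannot be told apart. The labels do not say whether replicate libraries stem from separate cultures or whether the line is a clone, so p-values measure a spread that may be technical.

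LIM-only proteins carry paired LIM zinc-binding domains and do not bind DNA themselves. They dock on LDB proteins, which self-associate and bring together distant DNA sites. In blood progenitors and endothelium LMO2 joins LDB1 with a GATA factor and a bHLH pair such as TAL1 with an E protein, and LMO1, LMO2 and LYL1 are known oncogenes of T-cell leukaemia. In fat, GATA2 and GATA3 are known for holding preadipocytes back from differentiation.

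The LMO genes are paralogs, so the stretch of coding sequence in which Lmo1 comes closest to Lmo2 is shown to tell whether reads could pass between them. It spans coding bases 324 to 413 of Lmo2, 96 to 185 of Lmo1 and 93 to 182 of Lmo4 (longest coding sequences in GENCODE M21). Capitals mark bases that differ from Lmo2.
Lmo2: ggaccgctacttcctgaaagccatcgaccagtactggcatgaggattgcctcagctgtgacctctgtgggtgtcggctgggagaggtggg
Lmo1: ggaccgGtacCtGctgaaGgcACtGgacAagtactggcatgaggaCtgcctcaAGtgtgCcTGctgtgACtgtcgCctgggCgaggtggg
Lmo4: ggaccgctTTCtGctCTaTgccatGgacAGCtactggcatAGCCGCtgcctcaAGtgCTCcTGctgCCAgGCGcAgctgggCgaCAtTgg
Over these 90 bases Lmo1 differed from Lmo2 at 18 positions (80% identity) and Lmo4 at 35 (61.1% identity). The longest run of bases shared exactly by transcripts of Lmo1 and Lmo2 was 16 bases. Across all 45 pairs of the 10 genes the longest such run was 23 bases, between Ldb1 and Ldb2.

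Promoter windows, from 250 bases before to 50 bases after a RefSeq transcript start (GRCm38.p6), were found for 7 of the 10 genes, with 14 starts in all. Lmo2, Ldb2 and Gata6 had no entry. The windows of the 2 most abundant genes, Lmo4 and Ldb1, and of the 2 scarcest, Tal1 and Lyl1, are printed at their first start to show how they differ in CpG content. They lie at chr3:144205206-144205505 (minus strand), chr19:46045262-46045561 (minus strand), chr4:115056176-115056475 (plus strand) and chr8:84701207-84701506 (plus strand). Capitals mark AGATAA, a form of the GATA motif, and CTTTGAT or CTTTGAA, forms of the TCF/LEF motif, on either strand.
Lmo4 start 1: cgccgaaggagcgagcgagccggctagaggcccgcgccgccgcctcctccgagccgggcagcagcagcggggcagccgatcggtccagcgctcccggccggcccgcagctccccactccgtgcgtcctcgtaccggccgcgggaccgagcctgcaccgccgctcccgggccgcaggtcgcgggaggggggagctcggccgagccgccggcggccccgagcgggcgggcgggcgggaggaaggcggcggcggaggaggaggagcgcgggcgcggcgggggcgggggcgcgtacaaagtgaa
Ldb1 start 1: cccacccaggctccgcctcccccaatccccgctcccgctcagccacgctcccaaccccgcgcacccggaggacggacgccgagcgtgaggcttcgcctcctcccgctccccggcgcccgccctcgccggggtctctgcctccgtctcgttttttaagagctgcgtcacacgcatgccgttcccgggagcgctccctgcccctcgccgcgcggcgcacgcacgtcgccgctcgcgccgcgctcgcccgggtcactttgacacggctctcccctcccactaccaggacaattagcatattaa
Tal1 start 1: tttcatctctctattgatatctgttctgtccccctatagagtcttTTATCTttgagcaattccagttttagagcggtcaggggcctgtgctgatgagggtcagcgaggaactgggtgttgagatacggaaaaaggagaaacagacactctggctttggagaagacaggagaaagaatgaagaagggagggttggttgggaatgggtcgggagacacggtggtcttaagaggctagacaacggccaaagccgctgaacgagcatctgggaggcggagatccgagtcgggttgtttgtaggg
Lyl1 start 1: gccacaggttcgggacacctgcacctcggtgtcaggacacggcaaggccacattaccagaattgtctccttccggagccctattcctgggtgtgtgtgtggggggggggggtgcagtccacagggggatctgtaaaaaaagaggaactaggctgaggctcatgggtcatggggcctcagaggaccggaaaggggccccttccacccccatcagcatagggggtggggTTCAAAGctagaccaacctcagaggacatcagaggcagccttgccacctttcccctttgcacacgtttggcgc
The first Lmo4 window held 52 CpG dinucleotides, an observed-over-expected ratio of 1.06, and the first Ldb1 window 41, a ratio of 1.19. The Tal1 window held 11 (ratio 0.647) and the Lyl1 window 7 (ratio 0.261), where the median over 32851 mouse windows was 0.384. Of these 4 windows only that of Lyl1 was below that median. CpG content did not follow the RNA level over the other starts: the third Ldb1 start had 5 CpG dinucleotides (ratio 0.257), the second Tal1 start 22 (ratio 0.758), and the 2 overlapping windows of the scarce Lmo1 had ratios of 0.88 and 0.945. AGATAA occurred in 2 of the 14 windows, at -205 from the first Tal1 start and at -240 and -200 from the third Ldb1 start, against 11.2% of all windows. CTTTGAT or CTTTGAA occurred in 2, at -237 from the first Lmo1 start and -23 from the Lyl1 start, against 8.65% of all windows. The E-box CANNTG occurred in 9 of 14 and in 72.3% of all windows. The arrangement bound by the blood complex, CANNTG followed after 7 to 9 bases by GATA, occurred in 0 of 14 and in 1.66% of all windows. These are matches of letters only.

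Libraries held 26621293 to 33484764 counts. Levels are given as CPM, counts scaled to library size. The second principal component of log2 CPM (15.9% of variance) separated 2 libraries, control replicate 3 and knockout replicate 2, from the remaining 4. Tcf7l2 itself was at 7.71, 6.13 and 9.11 CPM in control and 5.65, 6.85 and 5.86 CPM in knockout libraries, a log2 fold change of -0.32 (SE 0.14; edgeR adjusted p = 0.125). It was -0.46 without control replicate 2 (edgeR adjusted p = 0.0322), the only 1 of 12 alternatives in which the gene was called, and -0.19 without control replicate 3 (edgeR adjusted p = 0.377). Since counts were summed over all exons, they do not show a floxed exon by itself, and the genotype labels are not checked by this value. Markers of the labelled cell type were abundant: all 12 adipocyte markers were tested, 11 rose in knockout cells, and their summed level was 8174 to 8443 CPM in control and 11021 to 13118 CPM in knockout libraries. Of 12 preadipocyte markers 1 rose and 11 were not called, with sums of 3641 to 3874 and 3721 to 3843 CPM. Over all tested genes 11.9% were called higher and 10.5% lower.

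Because Lmo2, the LDB genes and the GATA genes serve blood and endothelial cells, markers of those cells were read as well. Of 16 blood cell markers 7 had no count in any library (among them Adgre1, Cd3e, Cpa3, Hba-a1, Hbb-bs and Hbb-bt), 13 had at most 3 counts in each library, and the sums were 5.07 to 5.87 CPM in control and 5.85 to 6.72 CPM in knockout libraries. Of 3 tested, Kit rose 1.72-fold (edgeR adjusted p = 0.0198) and Cd68 and Csf1r were not called. The 0 counts of Hba-a1, Hbb-bs and Hbb-bt, globin genes with close paralogs, are uncertain. How reads with several matches were handled is not known. Of 12 endothelial markers Cldn5 and Sox17 had no count, 4 had at most 3 counts in each library, and the sums were 35.6 to 38 and 36.3 to 38 CPM. Most of that sum came from Kdr, Tek, Egfl7 and Flt1. Cdh5 and Tie1 had at most 1 count in a library, Pecam1 at most 6, Emcn and Esam at most 8, and Vwf at most 15. Kdr rose 1.3-fold (edgeR adjusted p = 0.00363) and Egfl7 fell 1.43-fold (edgeR adjusted p = 0.00145).

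Levels of different genes were compared as RPKM, which scales counts for exon length and library size. In control cells the order was Lmo4 at 21.5 ± 0.592 RPKM (SD, n = 3), Ldb1 at 18.6 ± 0.318, Lmo2 at 7.71 ± 0.619, Gata6 at 4.86 ± 0.0562, Ldb2 at 4.84 ± 0.381, Gata2 at 0.212 ± 0.033, Gata3 at 0.0993 ± 0.00891, Lmo1 at 0.067 ± 0.0411, Lyl1 at 0.011 and Tal1 at 0.0027 RPKM. The step from Ldb2 down to Gata2 was 22.8-fold and divided 5 genes of clear expression from 5 scarce ones. Neighbours in this order whose libraries overlapped were Gata6 with Ldb2, Gata3 with Lmo1, and Lyl1 with Tal1. The order in knockout cells was the same for the first, second and last 5 places, while Lmo2, at 2.46 ± 0.533 RPKM, moved from the third place to the fifth, below Ldb2 (4.7 ± 0.245) and Gata6 (4.1 ± 0.456).

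**Figure D1:**
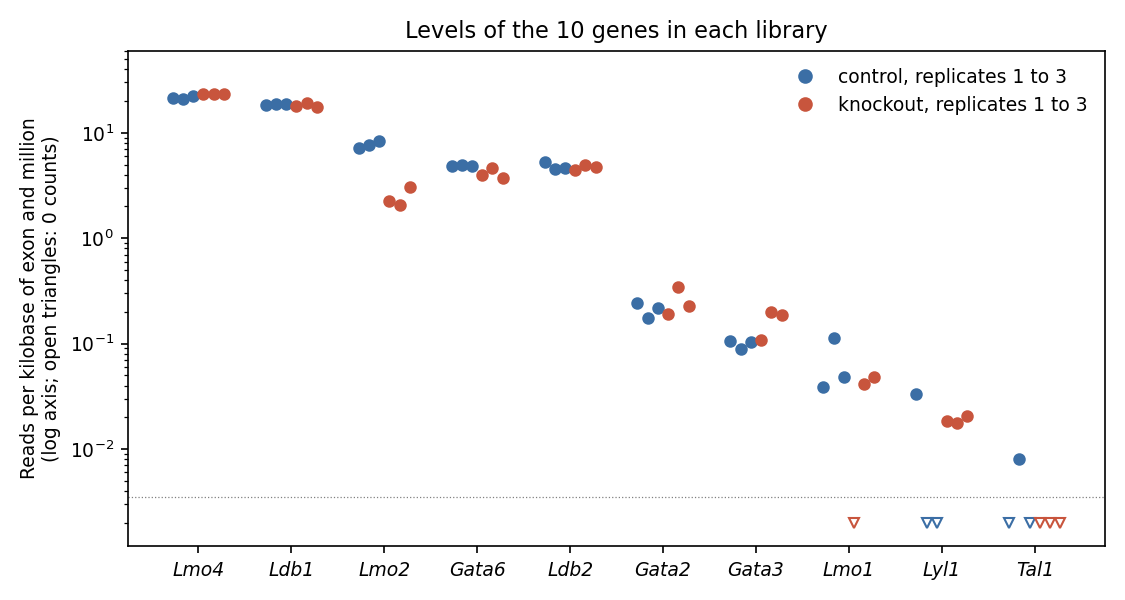
Length-scaled level (RPKM, log axis) of each of the 10 genes in every library, 3 control (blue) and 3 knockout (red), ordered by the control mean; open triangles below the dotted line stand for 0 counts. Lmo4 and Ldb1 lie between 17.7 and 23.5 in all 6 libraries, Lmo2 between 7.13 and 8.36 in control and between 2.07 and 3.07 in knockout libraries, and Tal1 has a count in 1 library only.

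Since the genes were chosen on this comparison, their differences between knockout and control cells are a description and carry no test, and nothing is read from the counts of calls. Of the 10 genes, 7 passed the filter on low counts. edgeR's fit over all genes called 2 of these lower in knockout cells (Lmo2 and Gata6) and left 5 uncalled. Over all 14946 tested genes it called 22.4%, 10.5% lower and 11.9% higher. Control and knockout libraries did not overlap in 4 of the 7, 2 lower and 2 higher, against 37.9% of all tested genes. The median log2 fold change of the 7 was -0.03, beside -0.002 for all tested genes. RNA from a mixed culture cannot tell fewer cells of one type from less RNA per cell.

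Lmo2 (ENSMUSG00000032698; GRCm38 chromosome 2, 103957986 to 103981878, plus strand) is the LIM-only partner of blood and endothelial complexes. Its counts were 519, 466 and 481 for control and 145, 141 and 178 for knockout libraries, which is 15.5, 16.5 and 18.1 CPM against 4.85, 4.49 and 6.65 CPM. Every knockout library was below every control library. The log2 fold change was -1.65 (SE 0.13), 3.15-fold lower in knockout cells and the 16th largest fall among tested genes. It ran from -1.84 to -1.48 over 12 alternative fits, with the smallest size when control replicate 3 and knockout replicate 2 were both left out. Of the markers given above, the blood cell sum was 5.07 to 5.87 CPM in control and 5.85 to 6.72 CPM in knockout libraries, and the endothelial sum adds genes called in opposite directions, Kdr higher and Egfl7 lower. The adipocyte sum was higher in every knockout library. The part of these markers in the Lmo2 difference was not tested.

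Lmo4 (ENSMUSG00000028266; GRCm38 chromosome 3, 144188530 to 144205220, minus strand) encodes a widely expressed LIM-only protein that competes for LDB1. It was at 75.6, 73.8 and 77.9 CPM in control and 82.3, 81.5 and 82.9 CPM in knockout libraries. The groups did not overlap, but the step was small, a log2 fold change of 0.12 (SE 0.047), and it was not called. Leaving out control replicate 3 and knockout replicate 2 together gave 0.15 and a call. Lmo1 (ENSMUSG00000036111; GRCm38 chromosome 7, 109138572 to 109175207, minus strand), mainly a gene of neurons, had 2, 5 and 2 counts in control and 0, 2 and 2 counts in knockout libraries. This is at about the level of 3 counts per library, or 0.0896 to 0.113 CPM, below which absence cannot be told from low expression, and no fold is given.

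The make-up of LMO RNA differed accordingly. As a share of the summed RPKM of Lmo1, Lmo2, Lmo3 and Lmo4, Lmo2 took 25%, 26.6% and 27.4% in control and 8.76%, 8.22% and 11.5% in knockout libraries. Lmo4 took 73.4% ± 1.32 (SD, n = 3) in control and 90.3% ± 1.85 (SD, n = 3) in knockout cells. The shares, and the sum given next, depend on the gene length used: with the longest transcript in place of all exons Lmo2 took 17.7% and 5.94%. The summed LMO level was 28.6, 28.6 and 30.5 RPKM in control and 25.6, 25.2 and 26.6 RPKM in knockout libraries, so that the sum was only 1.13-fold higher in control cells where Lmo2 was 3.15-fold higher.

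Ldb1 (ENSMUSG00000025223; GRCm38 chromosome 19, 46031570 to 46045214, minus strand) encodes the adaptor that all LIM-only proteins share. It was at 84, 86.8 and 86.1 CPM in control and 82, 87.6 and 81.5 CPM in knockout libraries. These ranges overlap, and the log2 fold change was -0.03 (SE 0.049). Its exons share 177 bases (3.84%) with Pprc1 on the opposite strand, which was at 12.4 and 12.7 CPM. Ldb2 (ENSMUSG00000039706; GRCm38 chromosome 5, 44472132 to 44799680, minus strand), its paralog, was at 17.6, 15.3 and 15.6 CPM in control and 14.8, 16.4 and 15.9 CPM in knockout libraries. The groups overlapped as well, with a log2 fold change of -0.04 (SE 0.081) whose sign turned to 0.03 without control replicate 1. Ldb1 took 79.4% ± 1.57 (SD, n = 3) of the summed RPKM of both genes in control and 79.4% ± 0.649 (SD, n = 3) in knockout cells.

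Ratios within a library do not depend on how libraries are scaled to each other. Their size does depend on the gene lengths used, as the shares do. The ratio of Lmo2 to Ldb1, in RPKM, was 0.391, 0.405 and 0.447 in control and 0.126, 0.109 and 0.173 in knockout libraries. The ratio of Lmo4 to Ldb1 was 1.17, 1.11 and 1.18 in control and 1.31, 1.21 and 1.33 in knockout libraries. Neither ratio overlapped between the groups, and they lay apart in opposite directions. The summed LMO level over the summed LDB level was 1.25 ± 0.0496 (SD, n = 3) in control and 1.13 ± 0.0682 (SD, n = 3) in knockout cells.

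**Figure D2:**
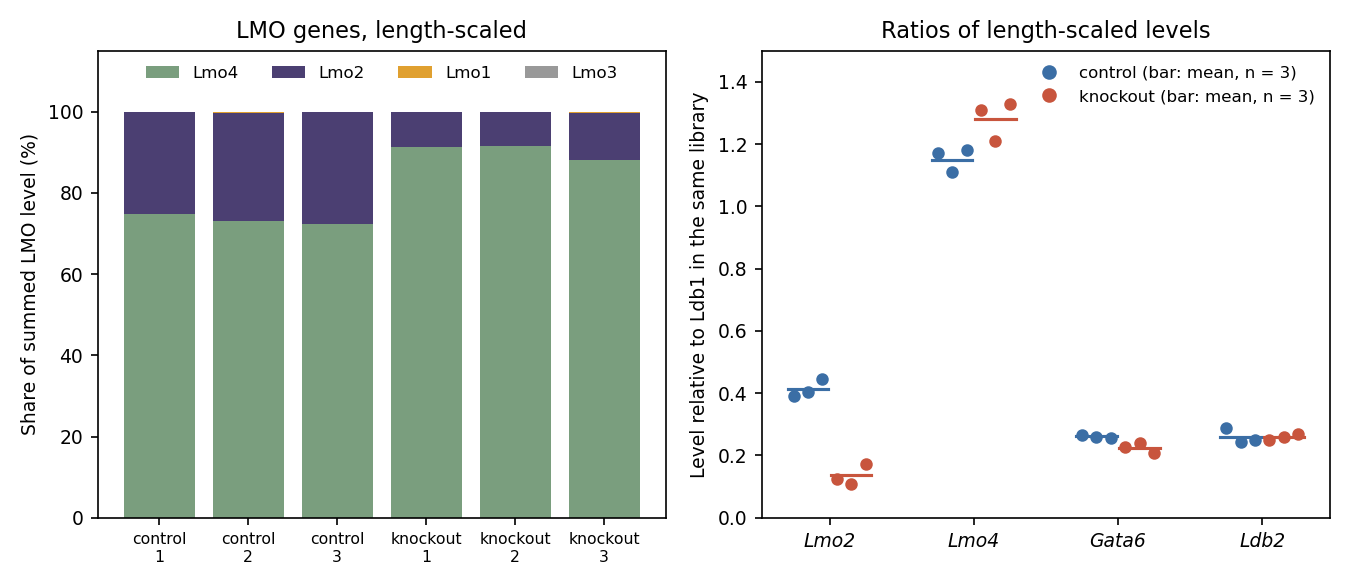
Left, share of the summed RPKM of the LMO genes taken by each gene in every library (stacked bars, %); right, RPKM of 4 genes divided by that of Ldb1 in the same library, with points for libraries and lines for group means. Lmo2 takes 25% to 27.4% of LMO RNA in control and 8.22% to 11.5% in knockout libraries, while Ldb2 relative to Ldb1 overlaps between the groups.

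Gata6 (ENSMUSG00000005836; GRCm38 chromosome 18, 11052064 to 11085635, plus strand), best known from endoderm and heart, was the main GATA gene of these cells. It was at 31.6, 32 and 31.3 CPM in control and 26.2, 29.9 and 24 CPM in knockout libraries. All knockout libraries were lower, and knockout replicate 2 was the closest to the controls. The log2 fold change was -0.24 (SE 0.075), and the call was lost on leaving out any 1 of the 3 control replicates, knockout replicate 1 or knockout replicate 3. Without knockout replicate 2 the log2 fold change was -0.33. Exons of Gata6 share 93 bases (1.43%) with 1010001N08Rik on the opposite strand, which was at 2.97 and 2.6 CPM.

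Gata2 (ENSMUSG00000015053; GRCm38 chromosome 6, 88193891 to 88207032, plus strand) was scarce, with 44, 27 and 31 counts in control and 31, 59 and 33 in knockout libraries, or 1.31, 0.956 and 1.17 against 1.04, 1.88 and 1.23 CPM. The groups overlapped, and the log2 fold change of 0.27 (SE 0.24) came from knockout replicate 2, without which it was -0.03. Gata3 (ENSMUSG00000015619; GRCm38 chromosome 2, 9857078 to 9890034, minus strand) had 14, 10 and 11 counts in control and 13, 25 and 20 in knockout libraries. At 0.417, 0.354 and 0.414 against 0.435, 0.796 and 0.747 CPM the groups did not overlap, with knockout replicate 1 next to the controls. Its log2 fold change was 0.73 (SE 0.31), ran from 0.55 to 0.96 over the 11 alternative fits that kept the gene, and was called only without knockout replicate 1. Exons of Gata3 share 155 bases (3.9%) with Gm13256 on the opposite strand and 77 bases (1.94%) with 9230102O04Rik on the same strand. Both of these genes were at 0 CPM.

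Among GATA genes, Gata6 took 90.1% to 90.6% of the summed RPKM in control and 85.4% to 89.6% in knockout libraries. Gata2 took 3.95% ± 0.632 (SD, n = 3) and 5.35% ± 1.1 (SD, n = 3), and Gata3 1.85% ± 0.181 (SD, n = 3) and 3.5% ± 0.975 (SD, n = 3). Gata4, which is outside the 10 genes, took 3.79% ± 0.627 (SD, n = 3) and 4.3% ± 0.628 (SD, n = 3). Gata1 and Gata5 had no count in any library.

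The bHLH factors that complete the complex in blood cells were at the limit of detection. Tal1 (ENSMUSG00000028717; GRCm38 chromosome 4, 115056426 to 115071755, plus strand) had 1 count, in control replicate 2. Lyl1 (ENSMUSG00000034041; GRCm38 chromosome 8, 84701457 to 84704715, plus strand) had a sum of 2 counts over the control and 3 over the knockout libraries. Exons of Lyl1 share 4 bases (0.222%) with Nfix on the opposite strand, which was at 61.2 and 63.2 CPM. A count of 0 allows up to 3 counts, or 0.0896 to 0.113 CPM, in a library of this depth, and a difference between the groups was not detectable.

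Other genes of the same complexes were read from 4 lists, and p-values below are edgeR's, adjusted over all tested genes. Beside the counts of calls below stands the share over all tested genes, 22.4% called, 10.5% lower and 11.9% higher. Of 19 LMO and LDB partners, 10 were tested, 1 fell and 9 were not called (median log2 fold change -0.06). The one that fell was Rbbp8, which encodes the DNA repair protein CtIP that also binds LMO4, from 61.8 ± 1.49 to 45.7 ± 3.51 CPM (SD, n = 3; log2 fold change -0.44, SE 0.061; edgeR adjusted p = 1.55e-04). Chosen after their values were seen, the LIM-homeodomain gene Lhx8 was at 24.9 ± 0.96 and 23.8 ± 0.445 CPM, and the LDB1-stabilising adaptor gene Ssbp3 at 48.1 ± 2.68 and 46 ± 3.33 CPM (SD, n = 3). Rlim, whose product marks LDB proteins for degradation, had a log2 fold change of -0.06 (SE 0.046). None of these was called.

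Of 18 bHLH partners and Id genes, whose products keep bHLH factors off DNA, 9 were tested, 3 fell and 6 were not called (median log2 fold change -0.09). Tcf4, the E-protein gene that encodes E2-2 and is not the gene deleted here, fell from 271 ± 6.59 to 215 ± 11.5 CPM (SD, n = 3; log2 fold change -0.33, SE 0.05; edgeR adjusted p = 2.84e-04). Twist2, a bHLH factor of mesenchymal cells, fell from 61 ± 3.16 to 45 ± 5.67 CPM (log2 fold change -0.44, SE 0.08; edgeR adjusted p = 0.00188). Tcf3, the gene of the E proteins E12 and E47, fell by 0.19 on the log2 scale (SE 0.056; edgeR adjusted p = 0.0251). Its call was lost on leaving out control replicate 1, control replicate 3, knockout replicate 1 or knockout replicate 3, and the adjusted p ran from 0.00238 to 0.112 over the alternatives. The 4 Id genes were not called, Id3 being at 102 ± 2.15 and 97.2 ± 2.58 CPM (SD, n = 3; chosen after its values were seen).

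Of 23 GATA relatives and co-regulators of the blood complex, 13 were tested, 1 rose, 2 fell and 10 were not called (median log2 fold change -0.07). Fli1, an ETS factor gene of blood and vessels, fell from 7.38 ± 0.214 to 5.15 ± 0.0374 CPM (SD, n = 3; log2 fold change -0.52, SE 0.097; edgeR adjusted p = 0.00163). Cbfb, which encodes the partner subunit of RUNX factors, fell by 0.22 on the log2 scale (SE 0.048; edgeR adjusted p = 0.005). Trps1, an atypical GATA-type repressor gene, was at 31.1 ± 1.43 CPM in control and rose to 36.2 ± 3.08 CPM (SD, n = 3; log2 fold change 0.22, SE 0.07; edgeR adjusted p = 0.0366). That call too was lost on leaving out control replicate 1, control replicate 2, knockout replicate 1 or knockout replicate 3, with adjusted p from 0.000391 to 0.168 over the alternatives. The FOG cofactor genes Zfpm1 (10.7 ± 0.628 and 9.2 ± 1.67 CPM) and Zfpm2 (13.1 ± 0.783 and 13.7 ± 2.44 CPM; SD, n = 3), chosen after their values were seen, were not called.

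Of 37 other genes of LIM-domain proteins, 34 were tested, 5 rose, 6 fell and 23 were not called (median log2 fold change -0.03). Limch1, which encodes an activator of non-muscle myosin, fell 2.6-fold, Csrp2, a cytoskeletal LIM protein gene, 1.3-fold and Pdlim7 1.23-fold (edgeR adjusted p of 5.48e-07, 1.05e-04 and 0.00324). The actin-binding LIM protein gene Ablim1 rose 1.51-fold and Fhl1 1.49-fold (edgeR adjusted p of 1.09e-04 and 9.80e-05).

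**Figure D3:**
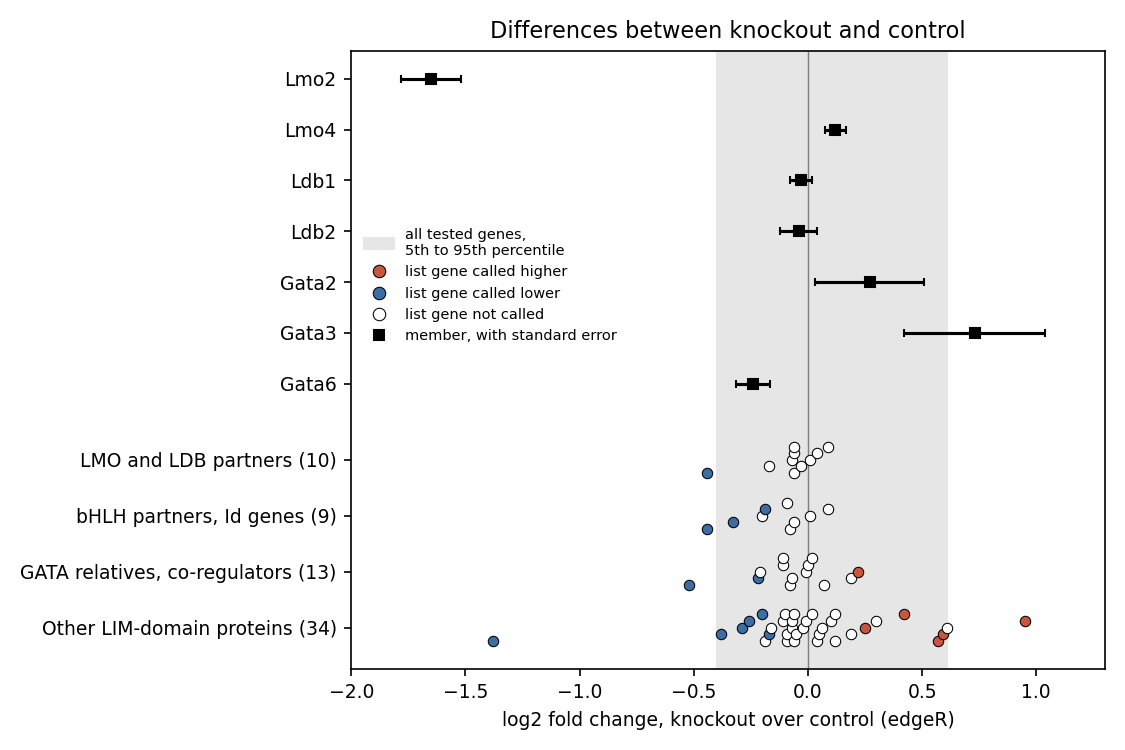
log2 fold change (knockout over control) of the 7 tested members with its standard error (squares) and of the tested genes of 4 related lists (circles, filled where called by edgeR); the grey band spans the 5th to 95th percentile of all tested genes, -0.40 to 0.61. Lmo2 at -1.65 lies farthest from 0, and Limch1 at -1.38 is the list gene farthest below the band.

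The genes whose profile over the 6 libraries was most like that of Lmo2 were found by Euclidean distance between mean-centred log2 CPM, among the 10552 tested genes whose average log2 CPM reached 2. The nearest were Coro2a, a coronin gene (distance 0.559), Limch1 (0.570) and the growth factor binding protein gene Igfbp5 (0.590). Next came the growth factor gene Pdgfd (0.697) and the proprotein convertase gene Pcsk5 (0.709). The median candidate was at 2.07, which is also the distance from Lmo2 to a gene that does not vary. All 5 nearest genes were lower in each knockout library, as the measure of likeness required. Igfbp5 was at 489, 474 and 618 CPM in control and 162, 192 and 164 CPM in knockout libraries. Like Lmo2 it was highest among controls in replicate 3, but among knockout libraries Lmo2 was highest in replicate 3 and Igfbp5 in replicate 2.

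**Figure D4:**
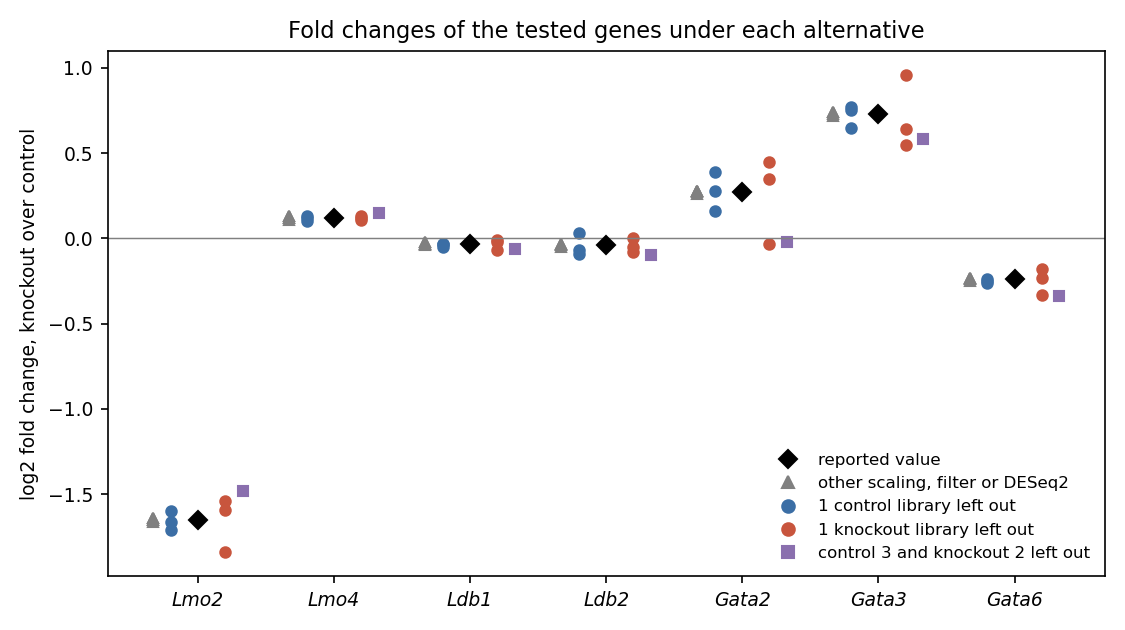
log2 fold change (knockout over control) of the 7 tested members as reported (diamonds), under other scalings, filters or DESeq2 (triangles), and with libraries left out (circles and squares). Lmo2 stays between -1.84 and -1.48, whereas Gata2 lies at -0.03 without knockout replicate 2 and Gata3 ranges from 0.55 to 0.96.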

How the data were processed

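The authors deposited raw read counts per Ensembl gene, per the file header and values, in 6 columns matched to samples by title, with groups from the genotype field. Tools listed in the submitters' processing notes, without roles, are featureCounts 1.5.1, STAR 2.5.2b and DESeq2 1.16.0, and the build is GRCm38. Not given in the sources used here are the strand setting, the annotation release and the handling of reads with several matches. Symbols matched 49326 of 49671 genes.

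Knockout was compared with control in edgeR 4.0.16 (R 4.3.3; quasi-likelihood F-test, TMM scaling, filterByExpr, group as the only term). A gene was called where its p, adjusted by Benjamini and Hochberg's method over 14946 tested genes, was under 0.05. Its standard error is the log2 fold change divided by the square root of F. CPM is TMM-scaled, and RPKM divides it by the merged exon length in GENCODE M21.

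The 10 genes, the 4 lists and 4 marker lists were chosen with earlier results of these data known. Named list genes are up to 3 called per direction with the largest fold change and an average log2 CPM of at least 0. Some genes this rule or the lists name are not reported here. Alternatives were DESeq2 1.42.0 (Wald test, or its size factors in edgeR), total count scaling, no filter, a CPM of at least 1 in 3 libraries, each library left out, control replicate 3 and knockout replicate 2 left out together, and longest-transcript lengths. Promoter windows are RefSeq's. Total counts limit precision as given beside scarce genes, for counting error only.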

Additional observations from a re-analysis of the deposited data

How the results depend on the processing

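Over all genes 3346 were called. The log2 fold changes of Lmo2, Lmo4, Ldb1, Gata3 and Gata6 kept their sign in every alternative that gave a value, while those of Ldb2 and Gata2, neither of them called, did not. With 1 library left out, 1 or 2 of the 10 genes were called, Lmo2 in each case. As the set was chosen for the fall of Lmo2 in these same libraries, its calls are no separate support for that fall. Over the same fits the count over all genes ran from 2145 (without control replicate 1) to 3475, with 2178 without knockout replicate 3. Without control replicate 3 and knockout replicate 2 together, 3957 genes were called in all, Lmo2, Gata6 and Lmo4 among them, and 2 of the LMO and LDB partners in place of 1. With the longest transcript as gene length the Lmo2 share of LMO RNA was 17.7% in control and 5.94% in knockout cells, in place of 26.3% and 9.5%. The causes of these shifts were not tested. Of 18 named genes outside the 10, 15 kept their side of the threshold in all 12 alternatives, the others being Tcf3, Trps1 and Tcf7l2, and 0 changed sign. Gata3 had no value with a CPM of at least 1 in 3 libraries. No paired analysis was possible because the labels number no replicates within a group. The numbers used here follow the order of the samples and pair none of them. Depth limits what can be said of Lmo1, Lyl1 and Tal1, and fold changes of Gata2 and Gata3 rest on 10 to 59 counts a library.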

Other observations

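The genes around Lmo2 on chromosome 2 were read as values, a window chosen after the data were seen. Within 500 kb on either side 30 genes were counted and 8 tested, of which edgeR called 2 higher and 2 lower in knockout cells and left 4 uncalled, beside 22.4% called among all tested genes. Catalase (Cat), which breaks down hydrogen peroxide, rose from 270 ± 8.41 to 381 ± 5.64 CPM (SD, n = 3; log2 fold change 0.50, edgeR adjusted p = 5.20e-06). The complement regulator gene Cd59a rose from 5.4 ± 0.224 to 7.7 ± 0.18 CPM (log2 fold change 0.51, edgeR adjusted p = 0.00171), which is uncertain because its paralog Cd59b, not called itself, may have taken part of the reads. Abtb2 fell from 11.9 ± 1.25 to 7.88 ± 0.895 CPM (log2 fold change -0.59, edgeR adjusted p = 0.00146) and the RNA-binding protein gene Caprin1 from 836 ± 35.7 to 735 ± 24.3 CPM (log2 fold change -0.19, edgeR adjusted p = 0.016). The nearest tested gene, Fbxo3, 45.8 kb from Lmo2, was at 86.9 ± 1.87 and 88.5 ± 0.945 CPM (SD, n = 3) and was not called.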
